A study of Homo sapiens with 4 samples.

Results

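The regions described here are 33 chromosome ends, each 5 Mb long, in maps of the histone mark H3K27me3 from HaCaT cells. On chromosomes 1 to 22 except 3, 9 and 20, a last end runs inward from the last peak end in either of 2 peak lists, and a first end runs inward from the first peak start. First ends of chromosomes 13, 14, 15, 21 and 22 were left out, which gave 14 first and 19 last ends. A peak belonged to the region that held its centre. The ends held 1508 of the 8890 peaks of the DMSO list and 2300 of the 13155 peaks of the AKBA list. The 19 chromosomes held a further 5838 and 8598 peaks, called here the rest.

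HaCaT is an immortalised, aneuploid line of human keratinocytes. One H3K27me3 library came from cells with AKBA in the medium for 12 hours and the other from cells with the solvent DMSO, and each condition also had 1 input DNA library with no values used here. AKBA is the usual short name of an acetylated keto-boswellic acid, a compound of frankincense. Neither its dose nor a full name stands in the sources used here. With 1 H3K27me3 library per condition, no difference between the conditions has a replicate check, no p-value is given, and the 95% intervals below are exact binomial (Clopper-Pearson) intervals that cover counting error only. Sequencing depth is unknown, and the amount of the mark cannot be told apart from the sensitivity of the call or from the copy number of a region.

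H3K27me3 is written by the Polycomb repressive complex PRC2 and marks silenced genes, often around the CpG islands of genes that control development. The outer parts of human chromosomes are known to be rich in genes and in GC bases, next to the telomeres themselves, which are made of a short repeat. Several groups of developmental regulators lie there, such as the forkhead genes FOXC1, FOXF2 and FOXQ1 on the short arm of chromosome 6. Another is FOXF1, FOXC2 and FOXL1 on the long arm of chromosome 16. Such gene names are background knowledge: an annotation of hg19, the build of the peaks, was not used here, and no peak was assigned to a gene.

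The label of chromosome ends was checked as far as coordinates allow. Coordinates run from the short arm. First peaks started between position 27561 (chromosome 17) and position 821548 (chromosome 1), so the 14 first ends began close to the start of the chromosome. Distances from the last peaks to the ends of the long arms were not measured. Each end has a peak at its outer edge by construction.

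Chromosome ends were densely marked in both lists. They made up 6.94% of the 2377.5 Mb spanned by peaks on the 19 chromosomes, and held 20.5% of the DMSO peaks (interval 19.6 to 21.5%) and 21.1% of the AKBA peaks (20.3 to 21.9%). In the DMSO list there were 9.14 peaks per Mb in the ends and 2.64 in the rest, a ratio of 3.46 (interval 3.27 to 3.67). In the AKBA list the values were 13.9 and 3.89 peaks per Mb, a ratio of 3.59 (3.42 to 3.76). Called bases followed the same order. DMSO peaks covered 0.705% of the ends and 0.229% of the rest, and AKBA peaks covered 1.49% and 0.434%. The ends were thus richer in called bases by factors of 3.08 in the DMSO list and 3.43 in the AKBA list. Against only the next 5 Mb inward, the ratios of peak density fell to 2.06 for DMSO and 2.03 for AKBA.

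Every one of the 19 chromosomes had more peaks per Mb in its ends than in its rest, in either list. In the DMSO list chromosome 19 had the lowest ratio, 1.43, and chromosome 12 the highest, 6.50. In the AKBA list these were chromosome 15 with 1.45 and chromosome 4 with 6.57. Ends were more than 2 times as dense on 16 chromosomes in each list. Chromosome 12 had 13.1 DMSO peaks per Mb in its ends and 2.01 in its rest, and 34.6% of its DMSO peaks lay in the ends. Chromosome 4 combined few peaks with a steep contrast, at 4.40 DMSO peaks per Mb in the ends and 0.947 elsewhere. Chromosome 15 was the exception for called bases. Its last end held 4.33 kb of DMSO peaks per Mb against 4.93 kb in the rest, and 8.50 kb of AKBA peaks per Mb against 9.06 kb.

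**Figure D1:**
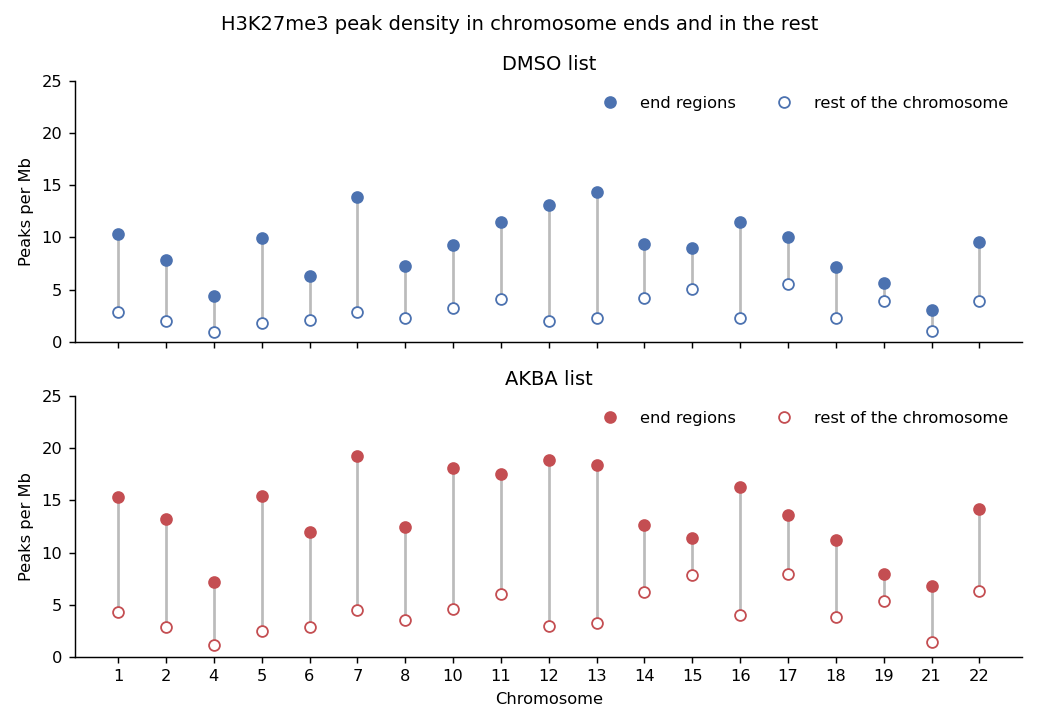
Peaks per Mb (vertical axes) on each of 19 chromosomes (horizontal axis) in the DMSO list (upper panel) and the AKBA list (lower panel), each list being 1 library. Filled points are the end regions and open points the rest of the chromosome; the filled point is the higher one on all 19 chromosomes in both panels, with the narrowest gap on chromosome 19.

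The density was not even along the 5 Mb. Pooled over the 33 ends, DMSO peaks numbered 8.21 per Mb in the outermost Mb, 11.8 between 2 and 3 Mb from the outer edge, and 5.58 between 4 and 5 Mb. AKBA peaks numbered 11.8, 19.7 and 8.06 per Mb in the same bins. Just outside the limit, between 5 and 6 Mb, there were 5.64 DMSO and 8.36 AKBA peaks per Mb, close to the values just inside it. From 10 to 20 Mb inward the bins held 2.09 to 4.82 DMSO and 3.00 to 7.09 AKBA peaks per Mb. In the pooled counts the outermost Mb was therefore less dense than the next 3 Mb in both lists. Single ends went either way. The first ends of chromosomes 12 and 1 held 43 and 40 of the 390 DMSO peaks between 2 and 3 Mb. By contrast, the last end of chromosome 11 held 28 DMSO peaks in its outermost Mb and 3 between 2 and 3 Mb.

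**Figure D2:**
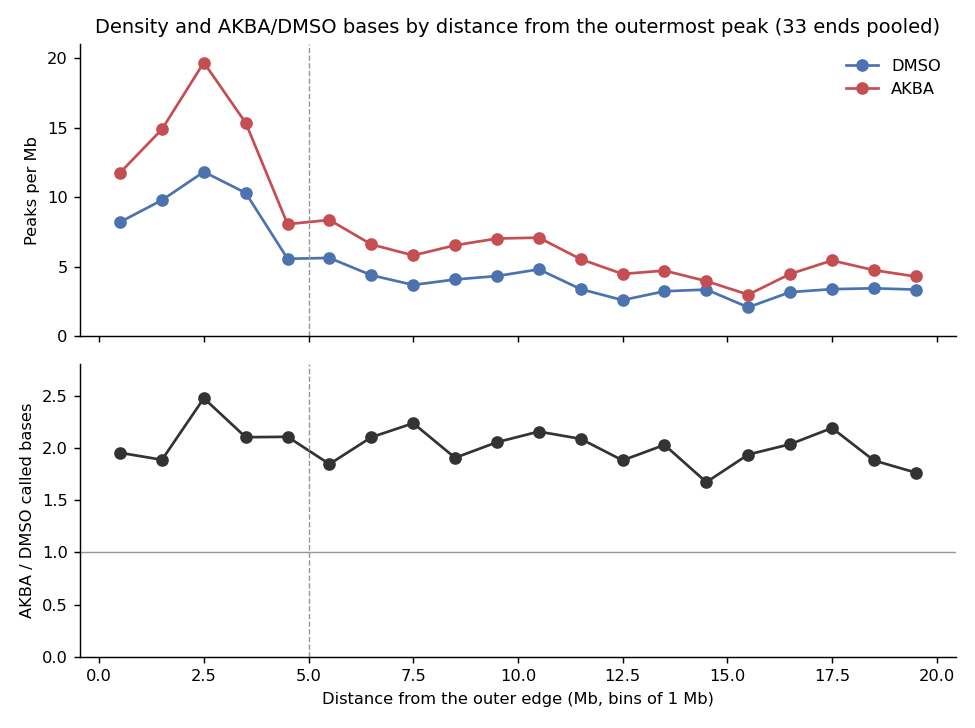
Peaks per Mb (upper panel) and AKBA over DMSO called bases (lower panel) in bins of 1 Mb, by distance in Mb from the outermost peak edge, pooled over the 33 ends; the dashed line marks the 5 Mb limit. Both lists peak between 2 and 3 Mb, where the ratio of bases is also at its highest value of 2.48.

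Ends differed widely among themselves. The number of peaks in an end ran from 6 through a median of 46 to 91 in the DMSO list, and from 5 through 65 to 132 in the AKBA list. The densest end in the DMSO list was the first end of chromosome 12 (66115 to 5066114), with 91 DMSO and 132 AKBA peaks. The first end of chromosome 1 (821548 to 5821547) followed with 86 and 122 peaks. This end of the chromosome is known to carry SKI and PRDM16, regulators of transcription. Next was the last end of chromosome 7 (153952360 to 158952359), with 85 and 95 peaks. The long arm end of chromosome 7 is known for the signalling gene SHH and the homeobox genes EN2 and MNX1. The last end of chromosome 16 (85154975 to 90154974) held 81 and 123 peaks, and 90.0 kb of DMSO and 157.3 kb of AKBA peaks, the most bases of any end in either list. Then came the last end of chromosome 13 (109996830 to 114996829) with 72 and 92 peaks, on the arm whose outer part carries SOX1, a factor of early neural cells.

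Sparse ends were found on both arms, among them the short arm end of chromosome 6, named above for FOXC1, FOXF2 and FOXQ1. Gene names are given for some ends only, and no relation of density to genes was tested. The last end of chromosome 4 (185942049 to 190942048) held 6 DMSO and 14 AKBA peaks, which covered 1.45 and 12.7 kb. At the first end of chromosome 18 (108118 to 5108117) there were 10 DMSO and 5 AKBA peaks, the lowest AKBA number. The last end of chromosome 21 (42604937 to 47604936) held 15 and 34 peaks. Tied at 17 DMSO peaks were the last end of chromosome 1 (242590089 to 247590088) with 31 AKBA peaks, the first end of chromosome 6 (388604 to 5388603) with 17, and the first end of chromosome 8 (300521 to 5300520) with 39. Opposite ends of 1 chromosome could therefore differ strongly: 86 against 17 DMSO peaks on chromosome 1, 38 against 6 on chromosome 4, and 10 against 62 on chromosome 18. On the 14 chromosomes with both ends in the set, last ends held 10.1 DMSO peaks per Mb and first ends 8.20, and the last end had more DMSO peaks on 9 of the 14.

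**Figure D3:**
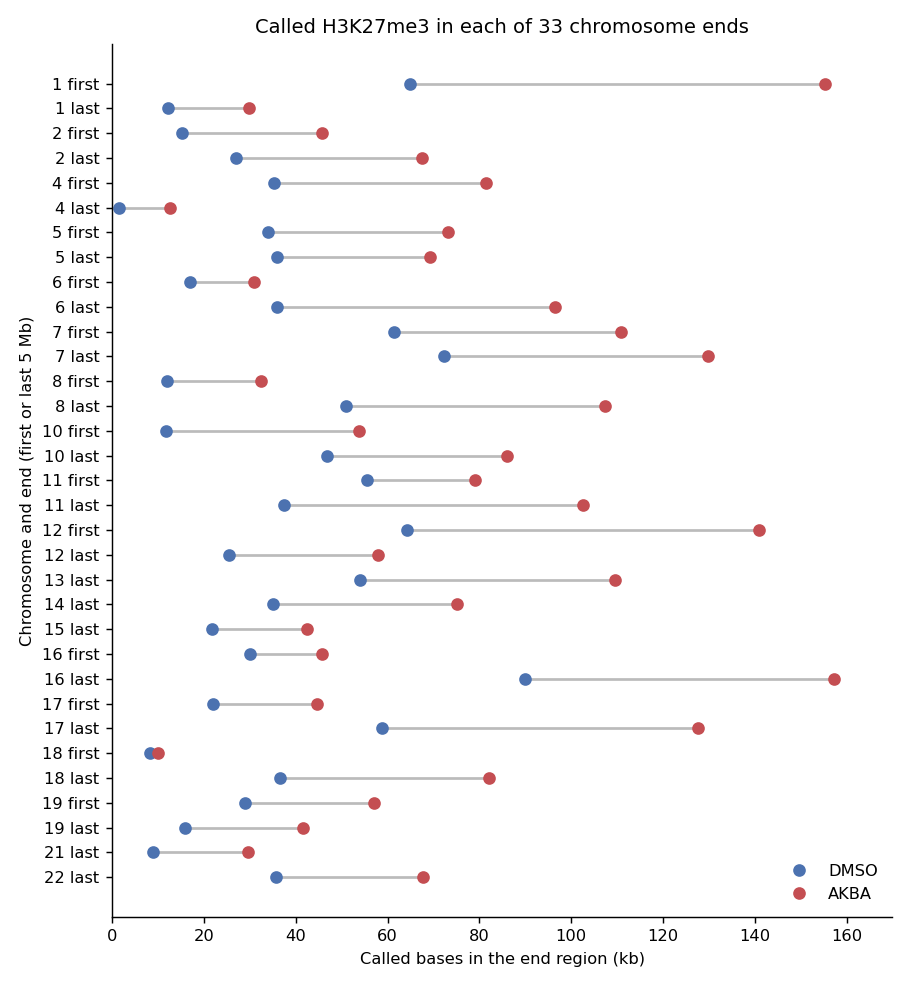
Called bases in kb (horizontal axis) in each of the 33 end regions (vertical axis, chromosome and first or last end), with a point for the DMSO list and a point for the AKBA list, 1 library each. The AKBA point lies to the right in all 33 ends; the gap is widest in absolute terms at the first end of chromosome 1 (64.9 and 155.3 kb) and narrowest at the first end of chromosome 18 (8.31 and 9.92 kb).

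Set beside all other stretches of the same size, the ends were among the densest but not the only dense ones. The 33 ends were set beside 433 whole interior windows of 5 Mb on the 19 chromosomes. The remainder that filled no whole window, just inside the last end, was left out, also for windows of 1 Mb. The median window held 46 DMSO peaks at an end and 9 in the interior. In 15 of the 19 chromosomes the window with the most peaks of both lists together was an end. Of the 33 densest windows of all 466, 19 were ends, and the highest number in an interior window was 87 DMSO peaks, against 91 in the densest end. Empty stretches of 1 Mb were also scarcer in the ends. No peak of either list was centred in 10 of 165 end windows of 1 Mb (6.06%), against 617 of 2203 interior windows (28.0%). The outermost window of each of the 33 ends holds a peak by construction, so it could not be empty. The rest also includes peak-free stretches of at least 3 Mb, 411.7 Mb in all.

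Called bases were more numerous with AKBA in all 33 ends. More AKBA bases were not particular to the ends. Among windows of 5 Mb with at least 10 DMSO peaks, the lower quartile of the ratio was 1.64 in 211 interior windows. It was 1.88 in 32 ends. Summed over the ends, called bases came to 1162.8 kb in the DMSO list and 2453.3 kb in the AKBA list, a ratio of 2.11. In the rest the sums were 5058.6 and 9591.8 kb, a ratio of 1.90. The ratio in the ends was thus 1.11 times that in the rest. Ends accounted for 22.2% of the AKBA excess in bases on these chromosomes, 7.82 kb per Mb against 2.05 kb per Mb in the rest. That share was only a little above their shares of called bases, 18.7% in the DMSO list and 20.4% in the AKBA list. The contrast of 1.11 had no test and was small. With ends of 2 Mb in place of 5 Mb it turned to 0.988, since the 2 outermost bins had ratios of 1.95 and 1.89 and the bin from 2 to 3 Mb had 2.48. Leaving out any 1 end kept the ratio of that bin between 2.41 and 2.53. The bin was singled out after its ratio was seen to be the highest, so this range is description only.

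The ratio of bases is the product of a ratio of peak numbers, 1.04 times higher in the ends, and a ratio of mean widths, 1.07 times higher. AKBA peaks outnumbered DMSO peaks 1.53 times in the ends (interval 1.43 to 1.63) and 1.47 times in the rest (1.42 to 1.52), and these intervals overlap. Mean widths were 1067 bp for AKBA and 771 bp for DMSO peaks in the ends, a ratio of 1.38, and 1116 and 866 bp in the rest, a ratio of 1.29. Peaks of both lists were thus narrower on average in the ends than in the rest. Peaks of at least 2 kb were 6.70% of DMSO peaks in the ends and 9.90% in the rest, and 12.2 and 14.3% of AKBA peaks. Median widths were 516.5 bp in the ends and 561 bp in the rest for DMSO, 734.5 and 733.5 bp for AKBA. Among pairs of peaks that overlapped one to one, the median excess of AKBA over DMSO width was 442.5 bp in the ends (602 pairs) and 388.5 bp in the rest (2264 pairs). The narrowest peak of a list measured 160 bp with DMSO and 214 bp with AKBA, so the lists differ in their lower limit of width everywhere, ends included.

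By chromosome, the ratio of AKBA over DMSO bases was higher in the ends than in the rest on 15 of 19 and lower on 4. Chromosome 2 showed the largest excess in the ends, with 2.67 against 1.79, followed by chromosome 10 with 2.38 against 1.80. Chromosome 21 had the highest ratio in its end, 3.29, but also the highest in its rest, 2.62. The 4 chromosomes in the other direction were 16 (1.69 in the ends, 2.39 in the rest), 22 (1.89 and 2.09), 7 (1.80 and 1.97) and 18 (2.06 in both to 2 decimals). For numbers of peaks the AKBA over DMSO ratio was higher in the ends on 9 of the 19 chromosomes.

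**Figure D4:**
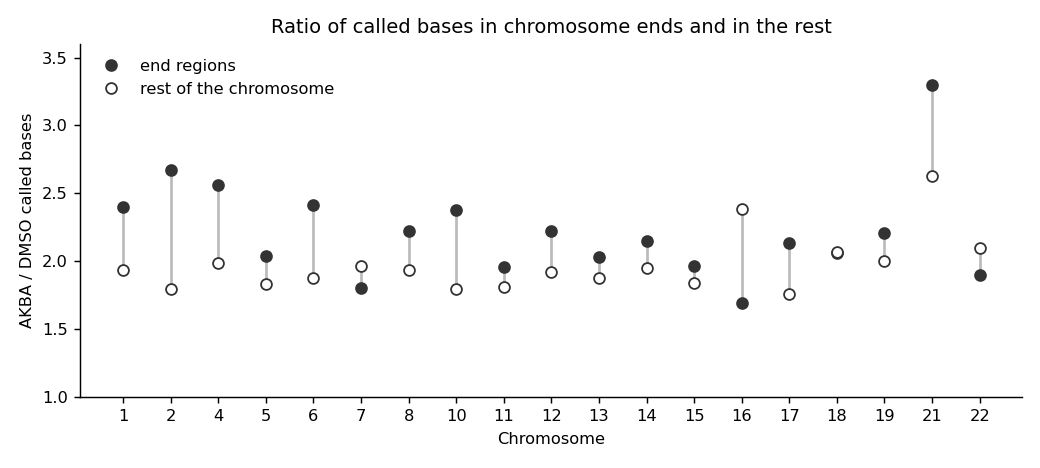
AKBA over DMSO called bases (vertical axis, which starts at 1) for each of 19 chromosomes (horizontal axis); filled points are the end regions and open points the rest. The filled point is higher on 15 chromosomes; chromosome 16 has the widest gap in the other direction, 1.69 in the ends and 2.39 in the rest.

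A ratio of at least 2 was found in 20 of the 32 ends with at least 10 DMSO peaks (62.5%), against 41.2% of all 243 windows of 5 Mb with that many and 80 of 211 interior ones (37.9%). In windows of 1 Mb with a peak in either list, AKBA covered more bases in 144 of 155 at the ends (92.9%), against 86.4% of all 1741 windows and 85.8% of the interior ones. Ends are denser than most windows. Among windows with at least 50 peaks of both lists together, a limit chosen after seeing the data, the summed ratio was 2.10 in 28 ends and 1.95 in 88 interior windows, with ratios of peak numbers of 1.52 in each. The end windows in that comparison still held more peaks, a median of 125.5 against 69.5.

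The highest ratio among ends with at least 10 DMSO peaks was 4.55, at the first end of chromosome 10 (318565 to 5318564), with 31 DMSO peaks over 11.8 kb and 78 AKBA peaks over 53.7 kb. It was followed by the last end of chromosome 21 with 3.29, the first end of chromosome 2 (214144 to 5214143) with 2.99, the last end of chromosome 11 (129868214 to 134868213) with 2.74 and the first end of chromosome 8 with 2.73. There were 27 DMSO and 55 AKBA peaks in that end of chromosome 2, and 57 and 110 in that of chromosome 11. The last end of chromosome 4 had a ratio of 8.74 on 6 DMSO peaks.

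At the other extreme was the first end of chromosome 18 with 1.19, the only end with fewer AKBA than DMSO peaks. The first end of chromosome 11 (193467 to 5193466) had 1.42, with 58 DMSO and 65 AKBA peaks over 55.5 and 79.1 kb. This end is known for the imprinted genes IGF2, H19 and CDKN1C, whose parental copies are expressed unequally. Both ends of chromosome 16 were low, the first (208444 to 5208443) with 1.52 and the last with 1.75, and the last end of chromosome 7 had 1.79. The share of AKBA among all peaks of an end had an interval that included the 59.6% of the rest in 31 of the 33 ends. The 2 others were the first end of chromosome 10 with 71.6% (62.1 to 79.8%) and the last end of chromosome 6 (165920314 to 170920313) with 69.1% (61.0 to 76.4%), where 46 DMSO and 103 AKBA peaks lay. These intervals were not widened for the number of ends, and the last end of chromosome 6 is named after its values were seen.

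With all peaks and any overlap of 1 bp or more, the shared shares of ends and rest lay within each other's intervals, but this depended on which peaks were taken. In the ends 811 DMSO peaks overlapped an AKBA peak (53.8%, interval 51.2 to 56.3%), against 53.8% in the rest and 54.5% of the whole DMSO list. Of the AKBA peaks in the ends, 717 overlapped a DMSO peak (31.2%, 29.3 to 33.1%), against 31.7% in the rest and 32.2% of the whole AKBA list. When both lists were first cut to scores of at least 3, 54.5% of DMSO peaks in the ends and 60.7% in the rest were shared. For AKBA peaks it was 30.1 and 39.0%. When both lists were cut to peaks of at least 1 kb, the shares were 76.5 and 83.5% for DMSO and 31.3 and 41.4% for AKBA. Such cuts also remove possible partners, so these are not shares overlapped by the full other list. Under a stricter rule, a reciprocal overlap of at least 50%, the ends were below the rest: 16.9% (15.1 to 18.9%) against 21.6% (20.5 to 22.7%) of DMSO peaks, and 11.1% (9.83 to 12.4%) against 14.7% (13.9 to 15.4%) of AKBA peaks. Single ends ranged more widely, and the highest and the lowest with at least 10 DMSO peaks are named after their values were seen. At the first end of chromosome 19 (293655 to 5293654) 24 of 27 DMSO peaks were overlapped (88.9%, 70.8 to 97.6%), and at the first end of chromosome 2 it was 7 of 27 (25.9%, 11.1 to 46.3%).

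Within classes of width the picture differed between narrow and wide peaks. DMSO peaks narrower than 500 bp were overlapped more often in the ends, 37.7% (34.2 to 41.4%) against 31.4% (29.6 to 33.2%). All 101 DMSO peaks of at least 2 kb in the ends overlapped an AKBA peak (interval from 96.4%), and so did 574 of 578 in the rest. AKBA peaks of at least 2 kb went the other way. In the ends 229 of 280 overlapped a DMSO peak (81.8%, 76.8 to 86.1%), against 1115 of 1233 in the rest (90.4%, 88.6 to 92.0%) and 89.0% of the 1847 in the whole list. The 51 wide AKBA peaks of the ends without a DMSO overlap lay in 24 of the 33 ends, with 8 at the first end of chromosome 12 and 6 at the first end of chromosome 1. Without chromosome 12, 83.0% of the wide AKBA peaks of the ends were overlapped, against 81.8% with it. The 51 had a median width of 2488 bp, a median score of 3.06 against 4.32 for overlapped wide AKBA peaks of the ends, and a median distance of 13.3 kb to the nearest DMSO peak. The 118 such peaks of the rest had a similar median width, 2427.5 bp, and score, 3.05, and lay a median of 9.48 kb from a DMSO peak. Scores come from the authors' lists, and no source used here says what they measure. Wide AKBA peaks were of similar width in the ends and in the rest, with medians of 2854 and 2979 bp, and against the next 5 Mb inward the overlapped shares were 81.8 and 86.5%.

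**Figure D5:**
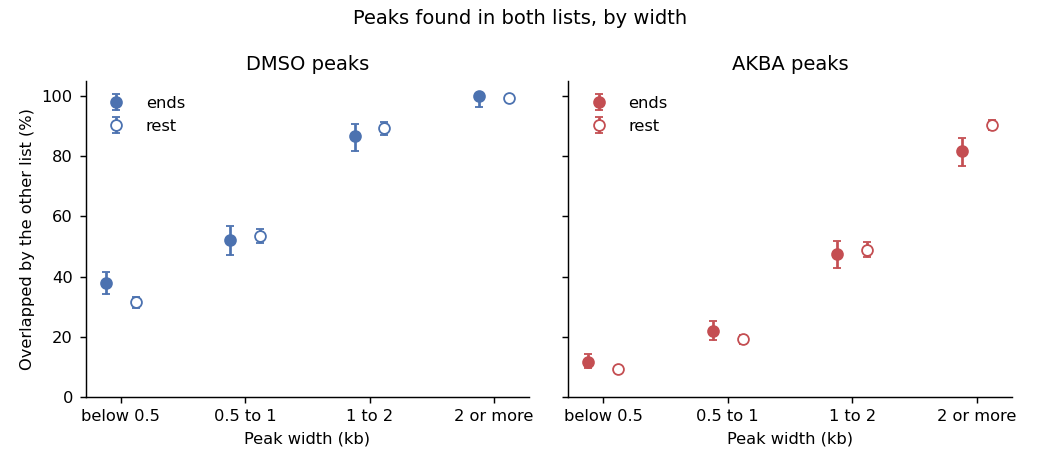
Percent of peaks overlapped by at least 1 bp by the other list (vertical axis) in 4 classes of width in kb (horizontal axis), for DMSO peaks (left) and AKBA peaks (right); filled points are the ends, open points the rest, and bars exact 95% binomial intervals. Ends and rest are close except among AKBA peaks of 2 kb or more (81.8 and 90.4%) and DMSO peaks below 0.5 kb (37.7 and 31.4%).

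The 3 widest end peaks of each list were shared. The widest DMSO peak of the ends lay on chromosome 7 from 1276999 to 1289570, 12572 bp wide, wholly inside an AKBA peak of 15002 bp. The short arm end of chromosome 7 is known for UNCX, a homeobox gene. Next were a DMSO peak on chromosome 11 from 2154243 to 2162624, 8382 bp wide and 87.7% covered by 2 AKBA peaks, and a DMSO peak on chromosome 4 from 1395966 to 1401690, 5725 bp wide and 88.9% covered. The widest AKBA peak of the ends, on chromosome 16 from 86525671 to 86545314, was also the widest of the whole AKBA list, at 19644 bp, and 73.4% of it was covered by 5 DMSO peaks. The second was the peak on chromosome 7 named above, and the third, on chromosome 7 from 155240787 to 155254934, was 14148 bp wide with 63.2% covered by 6 DMSO peaks. Of the 100 widest peaks of each whole list, 13 (DMSO) and 14 (AKBA) lay in the ends, which held 1508 of all 8890 DMSO peaks and 2300 of all 13155 AKBA peaks.

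High scores in the ends were found at shared places as well. The top DMSO score in the ends was 8.33, on chromosome 18 from 74960562 to 74964280, inside an AKBA peak that ran from 74958624 to 74964355 and had the second AKBA score, 11.6. A narrow peak on chromosome 8 had the top AKBA score of the ends, 11.7 (144751550 to 144752301), and overlapped a DMSO peak with a score of 7.83 (144751609 to 144751887), the next below 7.99. The second DMSO score, 7.99, was that of a peak of 344 bp on chromosome 1 from 2629039 to 2629382, which lay within a 6158 bp AKBA peak. Next in the AKBA list, at 11.3, was a peak of 1192 bp on chromosome 7 from 157943153 to 157944344, which a DMSO peak of 262 bp overlapped.

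Peaks of both lists were also joined across gaps of up to 5 kb into domains, to compare longer marked stretches. The ends held 1867 domains, of which 749 had peaks of both lists (40.1%), 840 AKBA peaks alone and 278 DMSO peaks alone. In the rest 33.9% of 8144 domains had both. Domains of at least 10 kb numbered 84 in the ends, 50.9 per 100 Mb, against 273 in the rest, 12.3 per 100 Mb. A fixed gap joins more peaks where peaks lie closer, so these values are not independent of peak density. Domains held a mean of 2.04 peaks in the ends and 1.77 in the rest. AKBA peaks covered more bases than DMSO peaks in 79 of these 84 and in 256 of the 273 in the rest, nearly the same share. Such domains were most frequent at the last ends of chromosomes 17 (9 domains) and 16 (8), and 6 ends held none: the last ends of chromosomes 4, 21 and 22 and the first ends of 8, 16 and 18.

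The widest domain of the ends lay at the first end of chromosome 7 from 1249430 to 1310651, with 12 peaks of each list that covered 29.5 kb (DMSO) and 38.3 kb (AKBA). The second and the fifth were both at the last end of chromosome 16, from 86511591 to 86551256 with 17.7 and 24.9 kb and from 86306973 to 86335037 with 11.9 and 14.5 kb. The third, at the first end of chromosome 1 from 2974739 to 3008740, had the greatest contrast of the 5, with 8.72 kb of DMSO and 20.7 kb of AKBA peaks. The fourth, on chromosome 17 from 77762382 to 77790833, held 11.1 and 16.4 kb. The widest end domain with AKBA peaks alone spanned 10.4 kb on chromosome 16 from 89048703 to 89059142, with 3 peaks. DMSO peaks alone spanned at most 8.67 kb, on chromosome 11 from 1646759 to 1655424, with 4 peaks.

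Chromosomes outside the rule were measured the same way at both ends. On chromosome 3 the ends were less dense than the rest, with 1.30 against 1.92 DMSO and 2 against 2.84 AKBA peaks per Mb, unlike any of the 19 chromosomes. Chromosomes 9 and 20 had dense ends, at 14.8 and 16.7 DMSO peaks per Mb against 3.19 and 5.98 in the rest. Chromosome X had 1.90 DMSO peaks per Mb in its ends and 0.747 in the rest. AKBA over DMSO bases in the ends were 1.63 on chromosome 3, 1.89 on 9, 1.99 on 20 and 2.11 on X, against 1.87, 1.96, 1.91 and 2.14 in the rest of each. Of these 4 chromosomes, only chromosome 20 had the higher ratio at its ends.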

How the data were processed

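Chromatin from HaCaT cells was immunoprecipitated with an antibody against H3K27me3 and sequenced, per the labels' protocols. The submitters' processing notes name BWA, STAR, MACS2 and hg19, with no roles, versions or settings. The authors deposited 1 peak list per condition, with a score per peak. No source used here gives the scale of the score. Scores were ranked and compared only within a list, but an alternative applied the same minimum score to both lists. That minimum need not mean the same in each list. Read counts were not analysed here, so depth and its effect on the number of called peaks are unknown.

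Peaks were placed by their centre, called bases were summed over the peaks of a region, and overlaps of at least 1 bp counted as shared. Code was written in Python 3.11.15 with pandas 2.3.3, numpy 2.4.6, scipy 1.17.1 and matplotlib 3.10.9, and tested on simulated data and against bedtools 2.31.1. The text names the 5 densest and 5 sparsest ends by DMSO peaks (with ties) and the 5 highest and 5 lowest base ratios among ends with at least 10 DMSO peaks. It also names the 3 widest and 3 highest-scoring end peaks per list, the 5 widest domains and the widest domain of each list alone. The regions and lists were chosen with earlier results of these data known. Alternatives changed the score, number, width or joining of peaks, the size and choice of ends, the rest and the overlap rule, and left out each chromosome. The input libraries were not analysed here. The RefSeq tables at hand are of another build than the peaks, so neither gene positions nor sequences were used.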

Additional observations from a re-analysis of the deposited data

How the results depend on the processing

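With 1 library per condition no alternative stands in for a replicate, and depth, peak calling and treatment cannot be told apart. The cause of the changes below was not tested.

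Density in the ends over the rest stayed above 1 under every alternative run. In the order DMSO peaks, DMSO bases, AKBA peaks and AKBA bases, it was 2.06, 1.97, 2.03 and 2.06 against the next 5 Mb, 2.72, 2.44, 2.85 and 2.69 with ends of 10 Mb, and 2.82, 2.51, 2.92 and 2.79 without 79 peak-free stretches (411.7 Mb). Ends of 2 Mb gave 3.08 for DMSO peaks, 3.07 for AKBA peaks and 3.01 for AKBA bases, and last ends alone gave 3.73, 3.84 and 3.62. With scores of at least 3 it was 3.20 for DMSO peaks, 2.82 for DMSO bases and 3.23 for AKBA bases. Peaks of at least 1 kb gave 2.99 for DMSO peaks and 2.78 for DMSO bases. Merging within 5 kb gave 3.38 for DMSO bases, 3.24 for AKBA peaks and 3.83 for AKBA bases. Including chromosomes 3, 9 and 20, chosen after seeing the data, gave 3.26 for DMSO bases. Leaving out 1 chromosome gave 3.32 to 3.59 for DMSO peaks, 2.91 to 3.25 for DMSO bases, 3.45 to 3.74 for AKBA peaks and 3.30 to 3.61 for AKBA bases.

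The AKBA over DMSO ratio of bases in the ends was 2.56 with peaks of at least 1 kb, 1.92 with ends of 2 Mb and 1.66 with 8890 top-scoring peaks per list. Its quotient with the rest was 1.21 with peaks of at least 1 kb and turned to 0.988 with ends of 2 Mb. Without 1 chromosome the ratio was 2.09 to 2.16 and the quotient 1.10 to 1.15. The quotient for peak numbers, 1.04, turned to 0.983 after merging, 0.997 with ends of 2 Mb and 0.983 against the next 5 Mb.

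Overlapped shares are given as ends against rest. Cuts by score, width or number were made in both lists before overlaps were counted. A score of 3 need not mean the same in each list. They were lower in the ends under the reciprocal rule (DMSO 16.9 against 21.6%, AKBA 11.1 against 14.7%), with scores of at least 3 (54.5 against 60.7%, 30.1 against 39.0%), with peaks of at least 1 kb (76.5 against 83.5%, 31.3 against 41.4%) and with 8890 peaks per list (47.0 against 49.3%, 39.2 against 42.8%). They were higher in the ends when peaks within 1 kb counted (64.6 against 62.1%, 38.1 against 36.9%). Merging gave 56.5 against 53.9% and 36.6 against 34.7%, and ends of 2 Mb gave 56.1 against 53.6% and 34.4 against 31.4%. The same held against the next 5 Mb (53.8 against 52.7%, 31.2 against 30.2%). Including chromosomes 3, 9 and 20 gave 55.7 against 53.9% and 32.6 against 31.8%. Without chromosome 2 or 6 both shares were also higher in the ends. Both were lower in the ends with ends of 10 Mb, with last or first ends alone, and when DMSO peaks closer than the smallest AKBA gap were joined. For AKBA end peaks of at least 2 kb the share was 71.3% with scores of at least 3, 67.0% after merging, 54.3% with peaks of at least 1 kb in both lists and 29.3% under the reciprocal rule. Each was below the rest, at 83.0, 75.3, 69.6 and 47.2%. Without 1 chromosome the shares were 52.5 to 54.9% (DMSO), 30.1 to 32.0% (AKBA) and 80.5 to 83.0% (wide AKBA peaks). Removing the narrowest peaks of each list, also chosen after seeing the data, changed no direction.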
